A study of Mus musculus with 33 samples.

Results

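Cebpb and Jun are genes of basic leucine zipper (bZIP) transcription factors, and 3 of the 33012 gene probes on the array read them. A pair of probes carries the RefSeq transcript of Cebpb and is called the first and the second Cebpb probe here, and probe 534427 carries that of Jun. Of 305 genes with a name on the array they are 2. All 3 probes were detected on all 33 arrays, with a signal over noise of at least 3, and so passed the detection filter that 19438 probes passed. They were chosen by gene name and not by a cutoff on a measured value, but with earlier results of these data known.

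RAW264.7, a macrophage-like cell line from mouse, was profiled in 11 groups of 3 arrays, each treated for 6 h. One group received vehicle (0.1% DMSO) and another lipopolysaccharide (LPS, a component of the outer membrane of Gram-negative bacteria) at 1 µg/ml. The other 9 groups received LPS at the same dose plus 1 of 3 compounds (albiflorin, paeoniflorin, paeonol), each given at 1, 10 and 100 µg/ml. Every compound group therefore also carried LPS, and no group received a compound without it. A DMSO share was recorded for vehicle only, so whether the other groups carried the solvent is not known here. The series' text calls the 3 samples of a group biological replicates of a line, so the spread is between cultures of that line. In bulk RNA, a change in the share of cells that express a gene and a change in RNA per cell cannot be told apart. Albiflorin and paeoniflorin are isomeric monoterpene glycosides of peony root, and paeonol is a smaller phenolic ketone.

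A bZIP factor binds DNA as a dimer. The leucine zipper joins the partners, and the basic region next to it contacts the DNA. C/EBPβ, the product of Cebpb, is an activator of inflammatory genes in macrophages and is induced by LPS. Jun pairs with Fos or activating transcription factor (ATF) family members to form AP-1, and its activity is raised by phosphorylation through the Jun N-terminal kinases, which an RNA level does not show.

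The 250 bases upstream of each gene's start are given because both promoters are known to be read by bZIP factors themselves. They come from RefSeq on mouse assembly GRCm38.p6, which was not used to place the probes, and the capitals mark bZIP-type letters found on either strand. Cebpb lies on the plus strand at chr2:167688915-167690432 and its window is chr2:167688665-167688914. Jun lies on the minus strand at chr4:95049036-95052222 and its window is chr4:95052223-95052472. Both sequences run 5′ to 3′ towards the start.
Cebpb: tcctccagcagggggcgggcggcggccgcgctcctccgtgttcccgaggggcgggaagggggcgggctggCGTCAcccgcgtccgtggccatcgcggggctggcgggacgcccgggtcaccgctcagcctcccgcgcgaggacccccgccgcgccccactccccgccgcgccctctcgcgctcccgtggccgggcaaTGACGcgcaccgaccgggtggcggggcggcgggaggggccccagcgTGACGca
Jun: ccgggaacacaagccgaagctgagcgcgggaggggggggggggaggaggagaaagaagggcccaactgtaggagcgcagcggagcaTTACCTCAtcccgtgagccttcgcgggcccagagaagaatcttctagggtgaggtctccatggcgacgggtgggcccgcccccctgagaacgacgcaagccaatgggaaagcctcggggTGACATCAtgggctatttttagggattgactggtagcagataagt
The Cebpb window holds the letters TGACG, the core shared by cyclic AMP response elements, 3 times, with 1 of them read on the opposite strand. The Jun window holds TGACATCA from 45 to 38 bases before the start and TTACCTCA from 164 to 157 bases before it, which are the letters of the elements through which AP-1 is known to act on its own gene. Of 32851 mouse promoter windows of the same length, 17.8% held TGACG, 2.93% TGACATCA and 0.728% TTACCTCA on either strand. The full elements TGACGTCA (1.55% of windows) and TGANTCA (6.75%) and the C/EBP letters TTGCNNAA (9.56%) were in neither window. The Cebpb window was 81.6% G or C and the Jun window 61.2%. A match of letters is a description of the window and was not measured as binding here.

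Gene signals were quantile normalized between arrays and are given on the log2 scale, where a difference of 1 is a doubling. Levels of different probes are not set against each other, since each probe has its own scale. Whether the ranges of arrays overlap is given as a description. The share of all probes with separate ranges was not counted. The arrays had raw median signals of 335.9 to 1439.7, and 38.2% to 49.7% of their gene probes were detected. Replicate 1 of paeoniflorin at 10 µg/ml stood apart. It had the lowest share of detected probes and a median correlation with the other arrays of 0.906, against at least 0.944 for the rest. Replicate 3 of paeonol at 10 µg/ml had 2011 flagged gene spots and 352 with a signal of 0. The other arrays had at most 572 flagged gene spots and no signal of 0. Its member spots were not flagged. Per the file headers, arrays with the same replicate number were scanned on the same day. By their values the arrays also fell into 3 sets of 15, 10 and 8 that shared spots which were off in the other sets, and vehicle and LPS alone were in the first 2 sets only.

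Cebpb was higher in every LPS-treated group by the first Cebpb probe. Its log2 level was 18.83, 18.98 and 19.26 on the 3 vehicle arrays, with a mean of 19.02 ± 0.217 (SD, n = 3). With LPS alone it was 19.75, 19.90 and 19.90, with a mean of 19.85 ± 0.0841. The groups did not overlap, and the LPS arrays lay close together. The difference was 0.83 ± 0.178 (SE) on the log2 scale, a fold of 1.78 with a 95% interval of 1.38 to 2.29 (limma adjusted p = 0.00157). On the 3 scan days it was 0.93, 0.92 and 0.65. Of all tested probes, 6.59% were called higher in this comparison.

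With a compound added to LPS the level of this probe stayed above vehicle. Over the 30 LPS-treated arrays the level ran from 19.33 to 20.38 with a median of 19.92, and all 30 lay above all vehicle arrays. The lowest of the 30 was replicate 1 of paeoniflorin at 1 µg/ml, whose group had values of 19.33, 20.20 and 20.04. The tightest group was paeoniflorin at 10 µg/ml, with 19.87, 19.90 and 19.92. In order of the means, vehicle was lowest and paeonol at 100 µg/ml highest (20.16, 20.05 and 20.10). Of the 10 steps between neighbours in this order, 9 joined groups whose ranges overlapped, and only the step above vehicle did not.

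The mean of the 10 LPS-treated groups exceeded vehicle by 0.91 ± 0.132 for the first Cebpb probe (limma adjusted p = 7.92e-06), where 9.06% of probes were called higher. An exact permutation of the vehicle label within scan days gave p = 0.000751, the smallest that its 1331 arrangements allow. Each of the 9 compound groups also exceeded vehicle by itself, by 0.79 with paeonol at 1 µg/ml to 1.08 with paeonol at 100 µg/ml. These 9 comparisons share the vehicle arrays. The share of all probes called higher than vehicle was 7.54%, 6.21% and 6.52% with albiflorin at 1, 10 and 100 µg/ml. It was 6.53%, 6.05% and 6.08% with paeoniflorin and 6.85%, 6.5% and 4.88% with paeonol. Within the array set that held 1 vehicle array the difference of the LPS-treated arrays was 1.10, and within the set that held 2 it was 0.81.

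**Figure D1:**
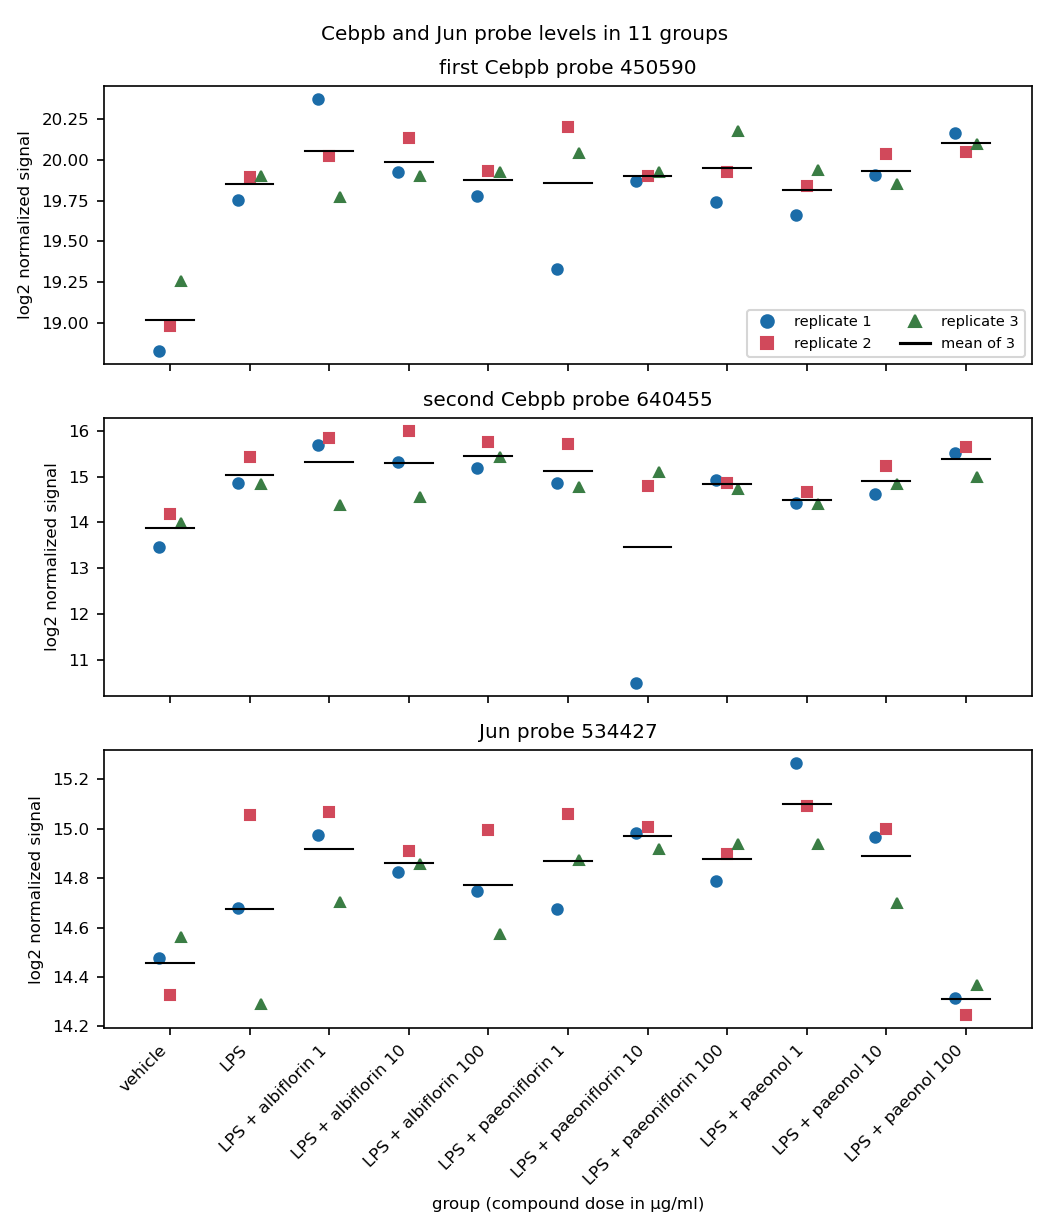
Log2 normalized signal (vertical axis) of each Cebpb and Jun probe in the 11 groups (horizontal axis), with 1 point per array, its marker showing the replicate number, and a line at the mean of 3. Vehicle lies below all 30 LPS-treated arrays for the first Cebpb probe, replicate 1 of paeoniflorin at 10 µg/ml is far below the other arrays for the second Cebpb probe, and Jun is lowest with paeonol at 100 µg/ml.

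The second Cebpb probe was also higher with LPS alone on each day, with a larger SE. Its log2 level was 13.45, 14.17 and 13.99 with vehicle (13.87 ± 0.374, SD, n = 3). With LPS alone it was 14.85, 15.44 and 14.83 (15.04 ± 0.345). The groups did not overlap, and the same-day differences were 1.40, 1.26 and 0.83. The fitted difference was 1.16 ± 0.698, with a 95% interval of -0.27 to 2.60 (limma adjusted p = 0.334), so it was not called.

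The call depended on the array that stands apart. The second Cebpb probe read 10.48, 14.80 and 15.11 in the 3 arrays of paeoniflorin at 10 µg/ml, a raw signal of 935 on the first against 25960 and 37138 on the others. Its signal over noise there was 4.63, and its median over all arrays was 43.0. On the same 3 arrays the first Cebpb probe read 19.87, 19.90 and 19.92 and Jun 14.98, 15.01 and 14.92, so the low reading was at 1 of the 3 member probes. Without that array, LPS alone exceeded vehicle at the second Cebpb probe by 1.16 ± 0.350 (limma adjusted p = 0.0211). The mean of the 10 LPS-treated groups exceeded vehicle by 1.05 ± 0.517 with the array (limma adjusted p = 0.162) and by 1.20 ± 0.260 without it (limma adjusted p = 0.000996). Within the array sets that held 1 and 2 vehicle arrays this difference was 1.80 and 0.96. The exact permutation of the vehicle label within scan days, with the array that stands apart kept, gave p = 0.0894. With that array, limma called 0 of the 9 compound groups against vehicle, with an unadjusted p under 0.05 in 2, and without it 6 were called. The share of all probes called without it is not given here. The reading of 10.48 was kept in the values that follow unless stated.

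Of the 30 LPS-treated arrays, 29 lay above all vehicle arrays for the second Cebpb probe, the exception being that array. The highest level, 16.00, was replicate 2 of albiflorin at 10 µg/ml, whose other values were 15.32 and 14.56. Paeonol at 1 µg/ml had the lowest group mean apart from vehicle and paeoniflorin at 10 µg/ml, with 14.41, 14.66 and 14.40. Scan day 2 gave the highest value in 9 of the 10 groups other than paeoniflorin at 10 µg/ml. The mean deviation from the group was -0.09, 0.36 and -0.28 on the 3 days. Ranges overlapped at 8 of the 10 steps in the order of the means.

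The 2 Cebpb probes did not differ detectably in the size of their LPS difference. The difference of the LPS-treated arrays from vehicle was smaller for the first Cebpb probe than for the second Cebpb probe by 0.14 on the log2 scale (-0.14, exact permutation p = 0.632, 1331 arrangements). Without the array that stands apart it was -0.29 (exact permutation p = 0.158). For LPS alone it was -0.33 (exact permutation p = 0.25), the smallest p that 8 arrangements of 6 arrays allow. These p-values do not show that the probes respond alike.

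Agreement of the 2 Cebpb probes from array to array was assessed with the group means removed. Over the 30 LPS-treated arrays Pearson's r of their deviations was 0.262 (permutation p = 0.0475, 0.0964 after Benjamini-Hochberg adjustment over the 3 pairs of probes), and Spearman's rho was 0.411 (permutation p = 0.0470, adjusted 0.0895). Without the 2 arrays farthest from the median of the first Cebpb probe, r was 0.243 (permutation p = 0.0830). Without the array that stands apart, r was 0.489 (permutation p = 0.0853) and rho 0.447 (permutation p = 0.0601). Within scan days 1, 2 and 3 r was 0.0572, 0.166 and 0.310 over 10 arrays each, with permutation p of 0.761, 0.593 and 0.354. On day 1 it was 0.654 over the 9 arrays left without the one that stands apart (permutation p = 0.0613). With the day means removed as well, r was 0.144 with that array and 0.574 without it (permutation p = 0.392 and 0.0167, the second 0.0501 after adjustment). The relation therefore did not pass the adjusted threshold in any of these forms. For Jun, r was 0.360 with the first Cebpb probe (permutation p = 0.108) and 0.209 with the second Cebpb probe (permutation p = 0.0643). Without the array that stands apart they were 0.361 (permutation p = 0.107) and 0.482 (permutation p = 0.0175, adjusted 0.0524). Without the 2 arrays farthest from the median of the Cebpb probe they were 0.197 (permutation p = 0.390) and 0.434 (permutation p = 0.0112, adjusted 0.0337). With the day means also removed they were 0.399 (permutation p = 0.0466, adjusted 0.140) and 0.0229 (permutation p = 0.864). Within scan days 1, 2 and 3, r of Jun was 0.623, 0.316 and 0.327 with the first Cebpb probe and -0.0150, 0.0115 and 0.0700 with the second Cebpb probe, and no permutation p passed. The relation of Jun with the second Cebpb probe did not hold within days.

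**Figure D2:**
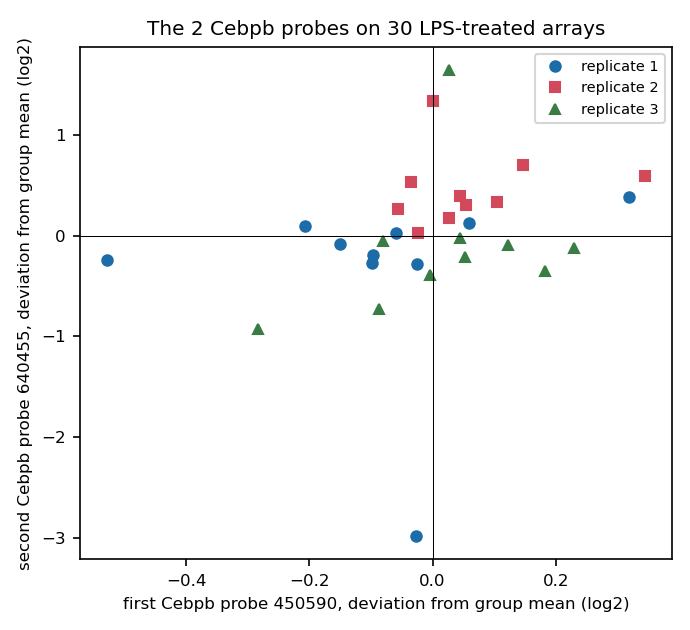
Deviation of each LPS-treated array from its group mean at the first Cebpb probe (horizontal axis, log2) and at the second Cebpb probe (vertical axis, log2), 1 point per array with markers for the replicate number. The point near -3 on the vertical axis is replicate 1 of paeoniflorin at 10 µg/ml, and the 2 points above 1 are the other arrays of its group.

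Jun was not called with LPS alone against vehicle. Its log2 level was 14.48, 14.33 and 14.56 with vehicle (14.46 ± 0.118, SD, n = 3). With LPS alone it was 14.68, 15.06 and 14.29 (14.68 ± 0.384), the widest spread of the 11 groups for this probe. The groups overlapped, and the same-day differences of 0.20, 0.73 and -0.27 did not share a sign. The fitted difference was 0.22 ± 0.159 with a 95% interval of -0.11 to 0.55 (limma adjusted p = 0.454).

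Over all LPS-treated arrays Jun was higher. The mean of the 10 groups exceeded vehicle by 0.37 ± 0.118, a fold of 1.29 (limma adjusted p = 0.0241). An exact permutation within scan days gave p = 0.0225 (0.0338 after Benjamini-Hochberg adjustment over the 3 probes). The call was lost without vehicle replicate 1 (0.38, limma adjusted p = 0.0792) or vehicle replicate 2 (0.30, limma adjusted p = 0.157), and with the array set as a block (0.34, limma adjusted p = 0.0569). Within the sets that held 1 and 2 vehicle arrays the Jun difference was 0.37 and 0.35. Of the 30 arrays, 26 lay above all vehicle arrays, and in 8 of 10 groups all 3 arrays did. The 2 other groups were LPS alone and paeonol at 100 µg/ml. These counts are a description, and the share of all probes with such a separation was not counted. All 10 steps in the order of the Jun means joined groups whose ranges overlapped.

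Of the compound groups, 3 of 9 were called higher than vehicle for Jun. Albiflorin at 1 µg/ml (14.98, 15.07 and 14.70) exceeded vehicle by 0.46 (limma adjusted p = 0.0456). That call was lost without any 1 of the 3 vehicle arrays (0.40 to 0.51, limma adjusted p = 0.0625 to 0.144) and without replicate 1 or 2 of its own group (0.43 and 0.38, limma adjusted p = 0.132 and 0.199). Paeoniflorin at 10 µg/ml exceeded vehicle by 0.51 (limma adjusted p = 0.0298), and by 0.50 without the array that stands apart (limma adjusted p = 0.0645). Its call was also lost without vehicle replicate 1 or 2 (0.52 and 0.45, limma adjusted p = 0.0628 and 0.114). The same held without replicate 2 of its own group (0.49, limma adjusted p = 0.0607). Paeonol at 1 µg/ml (15.27, 15.09 and 14.94) exceeded vehicle by 0.64 (limma adjusted p = 0.00573) and kept its call with any 1 array of either group left out, with adjusted p up to 0.0409. With scan day as a replicate block the count was 7, and it was 1 without vehicle replicate 1 and 1 without vehicle replicate 2. The shares of all probes called in these alternative fits are not given here. Paeonol at 100 µg/ml was not among the 7 or the 3, at -0.15 ± 0.159 from vehicle. It was the only compound group below vehicle, by 0.16, 0.09 and 0.19 on the 3 days, while each of the other 8 lay above vehicle on all 3 days.

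The compounds were then set against LPS alone, which asks whether a compound shifts the LPS-treated level of either gene. Limma called 0 of the 27 comparisons of a member probe with LPS alone, and 3 had an unadjusted p under 0.05. The share of all probes called was 0% for 8 of the compound groups and 0.144% for paeonol at 100 µg/ml. For the first Cebpb probe the 9 differences ran from -0.04 to 0.25, and their 95% intervals from -0.40 to 0.62. A change of 2-fold from LPS alone lay outside all 9 intervals for this probe. For the second Cebpb probe the differences ran from -0.54 to 0.42 in 8 groups, with intervals that reached from -1.98 to 1.86. The SE of these 8 differences was 0.698, and 0.350 without the array that stands apart. For paeoniflorin at 10 µg/ml, the group that holds this array, the difference was -1.57 ± 0.698 with it and -0.08 ± 0.392 without it. With paeonol the differences at this probe depended on the processing. Over the alternatives tried, which include the array set as a block, they ran from -0.65 to 0.28 at 1 µg/ml. They ran from -0.31 to 0.68 at 10 µg/ml and from 0.21 to 1.17 at 100 µg/ml, and none was called. For Jun the differences from LPS alone were 0.10 to 0.42 in 8 groups and -0.37 ± 0.159 with paeonol at 100 µg/ml (95% interval -0.69 to -0.04, limma adjusted p = 0.578). That Jun difference was -0.36, -0.81 and 0.08 on the 3 days.

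**Figure D3:**
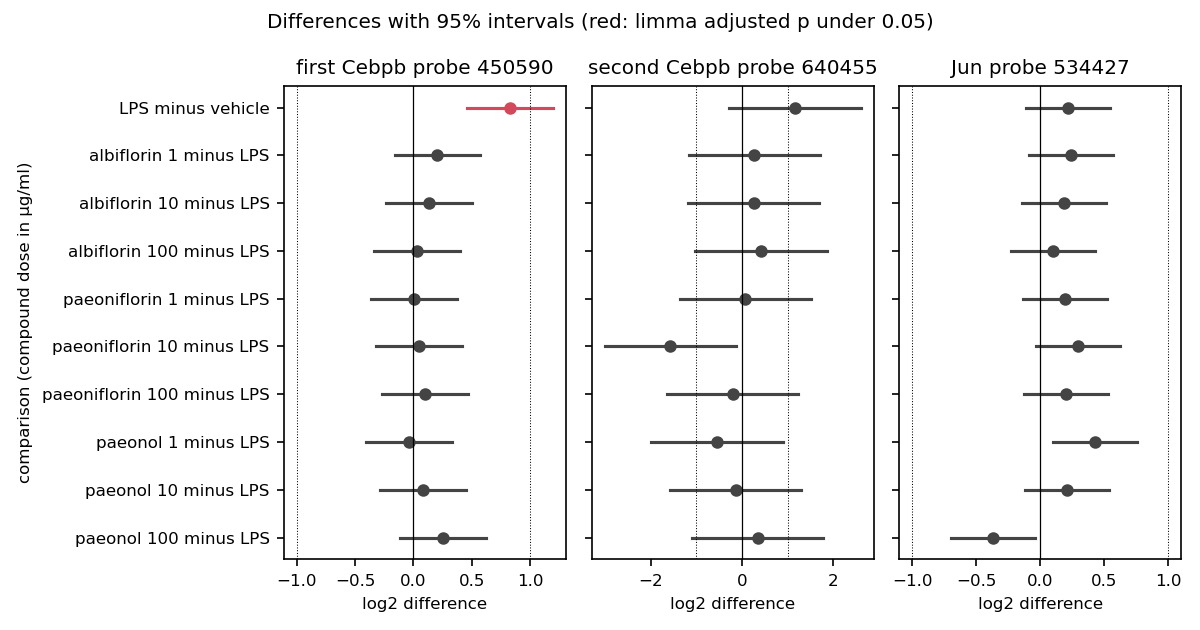
Log2 differences (horizontal axis) with 95% intervals for LPS alone against vehicle and for each compound group against LPS alone, 1 panel per probe, with dotted lines at a 2-fold change and red where limma's adjusted p is under 0.05. The only red comparison is LPS alone against vehicle at the first Cebpb probe, and the horizontal scale of the second Cebpb probe is wider than that of the other panels.

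After quantile normalization Jun had the same order across paeonol doses on all 3 days. It was 15.27, 15.09 and 14.94 at 1 µg/ml, 14.97, 14.999 and 14.70 at 10 µg/ml and 14.32, 14.24 and 14.37 at 100 µg/ml. All 3 arrays at 100 µg/ml were below all 6 arrays at the lower doses, and on each of the 3 days the level was lower at each higher dose. This order depended on the normalization. With arrays scaled to a common median instead, Jun on day 3 was 14.52 at 10 µg/ml and 14.58 at 100 µg/ml. The slope was -0.40 ± 0.0794 log2 per 10-fold dose (95% interval -0.56 to -0.23). It was not called (limma adjusted p = 0.119), but was with the replicate block (limma adjusted p = 0.0220). At each dose replicates 1 and 3 were in the same array set and replicate 2 in another, so the set makeup did not differ between doses. Vehicle, LPS alone and albiflorin had no array in the set of paeonol replicates 1 and 3. In comparisons of paeonol with these groups, compound and array set cannot be fully told apart.

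The Cebpb slopes over the same 9 arrays had the opposite sign, and limma called neither. The second Cebpb probe was 14.41, 14.66 and 14.40 at 1 µg/ml, 14.62, 15.23 and 14.84 at 10 µg/ml and 15.51, 15.65 and 14.99 at 100 µg/ml. It was higher at each higher dose on each day, with a slope of 0.44 ± 0.349 (limma adjusted p = 0.891), and 0.44 ± 0.175 without the array that stands apart (limma adjusted p = 0.429). The first Cebpb probe was 19.66, 19.84 and 19.94 at 1 µg/ml, 19.91, 20.04 and 19.85 at 10 µg/ml and 20.16, 20.05 and 20.10 at 100 µg/ml. Its slope was 0.14 ± 0.0891 (limma adjusted p = 0.819), and on day 3 the level at 10 µg/ml was below that at 1 µg/ml.

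Exact permutation of the doses within days, added after the data were seen, gave p = 0.00926 for Jun and for the second Cebpb probe with paeonol, the smallest that 216 arrangements allow (0.0417 after Benjamini-Hochberg adjustment over the 9 slopes of the probes and compounds). That p follows from the order already described, with the lowest and highest doses as extremes on every day, and is not separate support. The share of all probes with such an order was not counted. With arrays scaled to a common median the Jun order on day 3 differed, and the permutation was not run on those values. The same exact permutation gave p = 0.0278 for the first Cebpb probe, which did not pass after adjustment (0.0833). The other 6 slopes had exact p of 0.167 or more. With albiflorin the Jun slope was -0.07 ± 0.0794, and with paeoniflorin it was 0.00 ± 0.0794 with a 95% interval of -0.16 to 0.17. The Cebpb slopes with these glycosides were -0.09 and 0.05 for the first Cebpb probe and 0.07 and -0.14 for the second Cebpb probe. Of all probes, 0% were called for the albiflorin and paeoniflorin slopes and 0.0206% for the paeonol slope. The Jun slope with paeonol was lower than with albiflorin by 0.32 ± 0.112 (limma adjusted p = 0.749) and lower than with paeoniflorin by 0.40 ± 0.112 (limma adjusted p = 1.00), so the difference between compounds was not called.

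**Figure D4:**
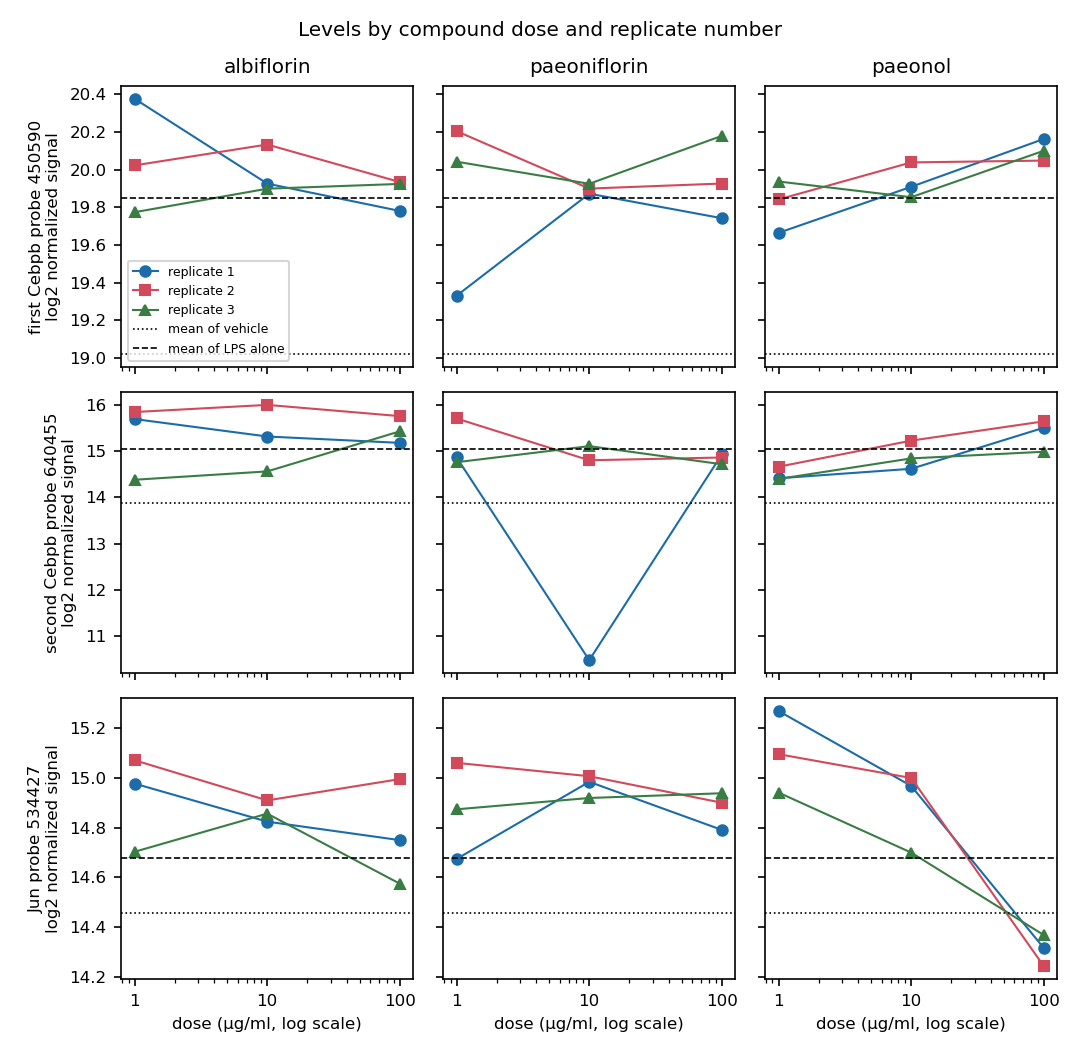
Log2 normalized signal (vertical axis) against compound dose in µg/ml (horizontal axis, log scale) for each probe and compound, with 1 line per replicate number and the mean of vehicle (dotted) and of LPS alone (dashed). Jun is lower at each higher paeonol dose on all 3 lines, and the second Cebpb probe is higher at each.

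At matched doses 9 pairs of compound groups were compared for each probe, and limma called 0 of the 27, of which 3 had an unadjusted p under 0.05. The share of all probes called was 0.0103% for albiflorin against paeonol at 1 µg/ml, 0.0309% for the same pair at 100 µg/ml, 0.0154% for paeoniflorin against paeonol at 100 µg/ml and 0% for the other 6 pairs. The isomers albiflorin and paeoniflorin differed by -0.07 to 0.20 at the first Cebpb probe, with 95% intervals that reached from -0.44 to 0.57. For Jun they differed by -0.11 to 0.05, with intervals that reached from -0.43 to 0.38. A 2-fold difference between the isomers lay outside these intervals. At the second Cebpb probe the isomers differed by 1.83 ± 0.698 at 10 µg/ml, where the paeoniflorin group holds the array that stands apart, and by 0.34 without it.

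For Jun, the widest differences between a glycoside and paeonol were at 100 µg/ml. Albiflorin exceeded paeonol there by 0.46 ± 0.159 (95% interval 0.14 to 0.79, limma adjusted p = 0.380). Paeoniflorin, with Jun levels of 14.79, 14.90 and 14.94, exceeded it by 0.57 ± 0.159 (95% interval 0.24 to 0.89, limma adjusted p = 0.618). Neither pair was called over all tested probes. Adjusted over the 9 pairs of the Jun probe alone, as also planned, the limma p was 0.0339 for albiflorin and 0.0140 for paeoniflorin. The other Jun pairs had 0.473 or more by that adjustment, and no Cebpb pair passed it. In both of these Jun pairs at 100 µg/ml the ranges of the arrays did not overlap after quantile normalization, a separation whose share over all probes was not counted. With arrays scaled to a common median, albiflorin (14.50 to 14.84) overlapped paeonol (14.05 to 14.58). The albiflorin difference at 100 µg/ml ran from 0.23 to 0.56 over the alternatives tried. At 10 µg/ml the Jun differences of albiflorin and paeoniflorin from paeonol were -0.03 and 0.08, and at 1 µg/ml they were -0.18 and -0.23. The first Cebpb probe differed between the glycosides and paeonol by -0.22 to 0.24 over the 6 pairs.

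The probes whose pattern was most like each member over the 33 arrays were taken by Pearson's r, as a description, among 135 named and 14478 unnamed probes. The arrays share the split between vehicle and LPS, so a shared difference between vehicle and LPS adds to r. For the first Cebpb probe the 5 named probes were Trim34a (r = 0.842), Ifi202b (0.840), Bcl2a1b (0.804), C130026I21Rik (0.796) and Csprs (0.778). Without the array that stands apart they were Amigo3 (0.859), Trim34a (0.848), Ifi202b (0.841), Bcl2a1b (0.805) and Nlrp3 (0.801). Ifi202b belongs to the interferon-inducible p200 family, and Bcl2a1b is an anti-apoptotic BCL2 relative. For Jun the values were lower, with Sowahc (0.543), H2bc13 (0.535), Csprs (0.514), C130026I21Rik (0.502) and Ifi202b (0.484). Without that array Stat5a (0.525) took the place of Ifi202b among the 5.

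The order for the second Cebpb probe also depended on the array that stands apart. With it the 5 named probes were Mydgf (r = 0.914), Wdfy1 (0.853), H2-Q8 (0.849), Ldhal6b (0.845) and Stat5a (0.776). Without it the first Cebpb probe came first (0.735), ahead of Mydgf (0.726), Wdfy1 (0.721), H2-Q7 (0.716) and Stat5a (0.715). The unnamed probes most like the members were 817038 and 540278 for the first Cebpb probe (0.880 and 0.879), 898366 and 931603 for the second Cebpb probe (0.960 and 0.957), and 913372 and 450769 for Jun (0.754 and 0.752). Without that array they were 499055 and 925260 (0.897 and 0.897), 475561 and 907300 (0.915 and 0.888), and, for Jun, 450769 and 913372 (0.757 and 0.751).

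Few other genes of these pathways had a name on the array. Of 52 bZIP factors listed, Cebpb and Jun were the only ones named, so their dimer partners were not analysed here. Of 42 genes listed for the MAP kinase cascade to AP-1, Frat2 and Mapk1ip1l were named, although Frat2 is known as a GSK-3 binding protein of Wnt signalling. They were detected on 4 and 3 of the 33 arrays, so no fold is given. None of 29 genes of LPS signalling and none of 27 target genes of C/EBP and AP-1 in macrophages had a name. Cebpb was the only 1 of 20 macrophage markers with a name, and none of 6 fibroblast, 5 T cell and 5 B cell markers had one, so the label of the line could not be checked further. Among all 180 named probes tested, 16 were called higher and 17 lower with LPS alone.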

How the data were processed

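RNA of RAW264.7 cells was hybridised to 33 arrays of 1 colour, grouped by the sample titles into 11 groups of 3. The first Cebpb probe is 450590 and the second is 640455. Per the labels' protocols, cRNA was labelled with digoxigenin for chemiluminescent detection. The deposited scanner tables hold for each spot an intensity on a linear scale, not normalized between arrays, with its standard deviation, a score of signal over noise and a flag for quality, per the file headers. A further deposited table holds the authors' log2 values, whose column for vehicle replicate 1 equals the log2 scanner intensity within 2.24e-06 and whose column medians run from 9.89 to 10.11; the normalization method is not given in the sources used here, and the table was an alternative only. No genome build was stated for the probes.

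Flags above 5000 were treated as missing and 303 control spots dropped. Signals were quantile normalized, floored at the 5th percentile (165.7) and taken to log2. Probes with signal over noise of at least 3 and no such flag on 3 or more arrays were tested (19438 of 33012). Limma 3.58.1 in R 4.3.3 was fitted to 11 group means over all 33 arrays, 2-sided, with Benjamini-Hochberg adjustment over all tested probes, and calls at an adjusted p under 0.05. For pairs at matched doses, p was also adjusted over the 9 pairs of each member probe, which was not used for calls. Intervals are 95% intervals of the fit. Exact and 100000-draw permutation tests used Python 3.11.15 and are 2-sided. The precision is limited by 3 arrays a group, and the median SE of LPS against vehicle was 0.337. The procedure was tested on simulated data. Names came from RefSeq transcripts in the probe identifiers, for 311 of 517 probes with one.

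Replicate numbers matched the headers' run ordinals on 33 of 33 arrays and mark a shared scan day, with a median correlation of deviations of 0.193 for the same number and -0.111 for different numbers. The members, lists and tests were chosen with earlier results of these data known. Besides the members, up to 6 named members of each list were to be named, and for each member the 5 named and 2 unnamed probes, detected on at least 17 arrays, with the largest Pearson r. Other normalizations, filters, blocks, weights and left-out arrays were tried as alternatives. The planned block by a header's array number could not be run because the headers carry none, and array sets read from spots that were on or off together replaced it after the data were seen.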

Additional observations from a re-analysis of the deposited data

How the results depend on the processing

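Of 2318 values under alternatives, 2164 kept their direction and side of the threshold, 0 reversed a called direction, and in 74 the sign turned while the value was not called in either setting. The first Cebpb probe kept its call against vehicle under all 17 alternatives for LPS alone (0.73 to 0.98) and all 43 for the 10 LPS-treated groups (0.82 to 1.03), and 6 to 9 of 9 compound groups were called, 6 where only the compared groups were fitted.

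For the second Cebpb probe, LPS minus vehicle was called with array quality weights (1.08) and without the array that stands apart (1.16). The mean of the 10 groups was called with the array set as a block (1.39), array quality weights (1.14) and without that array (1.20), and ran from 0.85 to 1.20 with any 1 array left out. Its count of compound groups called against vehicle was 1 with the array set as a block, 6 with weights, 6 without that array and 3 with only the compared groups. For Jun, the mean of the 10 groups was not called with the array set as a block (0.34), median normalization (0.31) or no detection filter (0.37), and ran from 0.30 to 0.42 with 1 array left out. Its count against vehicle, 3, was 7 with the replicate block, 7 with the authors' log2 table, 0 with median normalization, 1 with no detection filter, 0 with only the compared groups and 1 to 3 with 1 array left out. The Jun paeonol slope was called with the replicate block (-0.40) and with array weights (-0.40), and its limma adjusted p over 20 alternatives ran from 0.0162 to 0.806. Array weights called 1 matched-dose pair each for the second Cebpb probe and Jun. The agreement of the Cebpb probes had r of 0.0868 with median normalization, 0.144 with the replicate block, 0.489 without the array that stands apart and 0.243 without the 2 farthest arrays. The replicate block changed no other count or comparison given above. Why a value changed under an alternative was not tested, and the shares of all probes called under the alternatives are not given here. Leaving out that array and using array sets were chosen after seeing the data. The planned block by array number was not run. Jun's signal over noise was 4.52 to 31.6, and the precision of all values is limited by 3 arrays a group.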
